A study of Mus musculus with 16 samples.

Results

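The genes described here make and store the mediators of mast cells, and they were chosen by name: Hdc, Tph1, Slc18a2, Srgn, Alox5, Alox5ap, Ltc4s, Hpgds, Ptgs1 and Ptgs2. A probe set was taken when the array annotation gave it 1 of these symbols alone. This found 11 probe sets of 9 of the 10 genes, out of 45037 probe sets tested, and no value is given for Ptgs1. RNA was measured on 16 Affymetrix mouse arrays in 4 groups of 4 arrays. Oxi exo was RNA of exosomes, the small vesicles that cells release, from MC/9 cells (a mouse mast cell line) exposed to 125 µM H2O2 for 24 h, and norm exo was RNA of exosomes from normal conditions. Oxi cell and norm cell were RNA of MC/9 cells under H2O2 and under normal conditions. Cells of all groups grew in medium with serum and rat T-Stim, a culture supplement, and vesicles were filtered at 0.22 µm and pelleted at 120000 g for 70 min. The paper treats the cell arrays as the cells that released the exosomes, whereas the design text speaks of cells that had received exosomes, and which holds cannot be told apart from the files. MC/9 is a single line, and only some pairs of norm arrays are described as separate cultures, so the p-values measure the spread between these samples, which may be partly technical.

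Mast cells store histamine and serotonin in granules. There the transporter VMAT2 loads the amines, and serglycin, a proteoglycan with long sulfated sugar chains, holds amines and proteases. The cells also make leukotrienes and prostaglandins from arachidonic acid when they are activated. Exosomes carry RNA of the cell of origin, in amounts that need not follow those in the cell.

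Signals are MAS5.0 signals, a linear brightness scaled so that the trimmed mean of each array is 100. A probe set was called above background on an array when it was brighter than 95% of 217 probe sets for 186 genes that are specific to other tissues, such as odorant receptors. This background averaged 265 ± 25.0 in oxi exo, 238 ± 23.2 in norm exo, 11.8 ± 0.955 in oxi cell and 14.9 ± 1.10 in norm cell (SD, n = 4 each). The spiked hybridization controls were 20.8 times as bright in oxi exo as in oxi cell and 17.3 times as bright in norm exo as in norm cell, so a level on an exosome array and a level on a cell array are each relative to their own array. The 3′ to 5′ signal ratio of Gapdh averaged 1.89 in oxi exo, 1.64 in norm exo, 0.851 in oxi cell and 0.832 in norm cell, and that of actin 3.86 in oxi exo, 5.35 in norm exo, 1.38 in oxi cell and 1.43 in norm cell. Of 12 mast cell marker genes with a probe set, 10 were above background on all oxi cell arrays and 9 on all norm cell arrays, among them Kit, Fcer1a, Ms4a2 and Cpa3, while Mcpt4 and Mcpt1 were above background on no array. The basophil protease Mcpt8 was above background on no array either. The other basophil marker with a probe set, Cd200r3, was above background on all cell arrays. It averaged 637 in oxi cell and 697 in norm cell.

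Of the 11 probe sets, 1 was above background on all 4 oxi exo arrays, 5 on all norm exo arrays, 9 on all oxi cell arrays and 9 on all norm cell arrays. Over all probe sets the shares were 2.62% in oxi exo, 4.45% in norm exo, 45.1% in oxi cell and 44.5% in norm cell. Ptgs2 was the member gene that did not reach background in cells, and Tph1 was the one above background on all 16 arrays. The plot of signals by array shows the 9 genes.

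**Figure D1:**
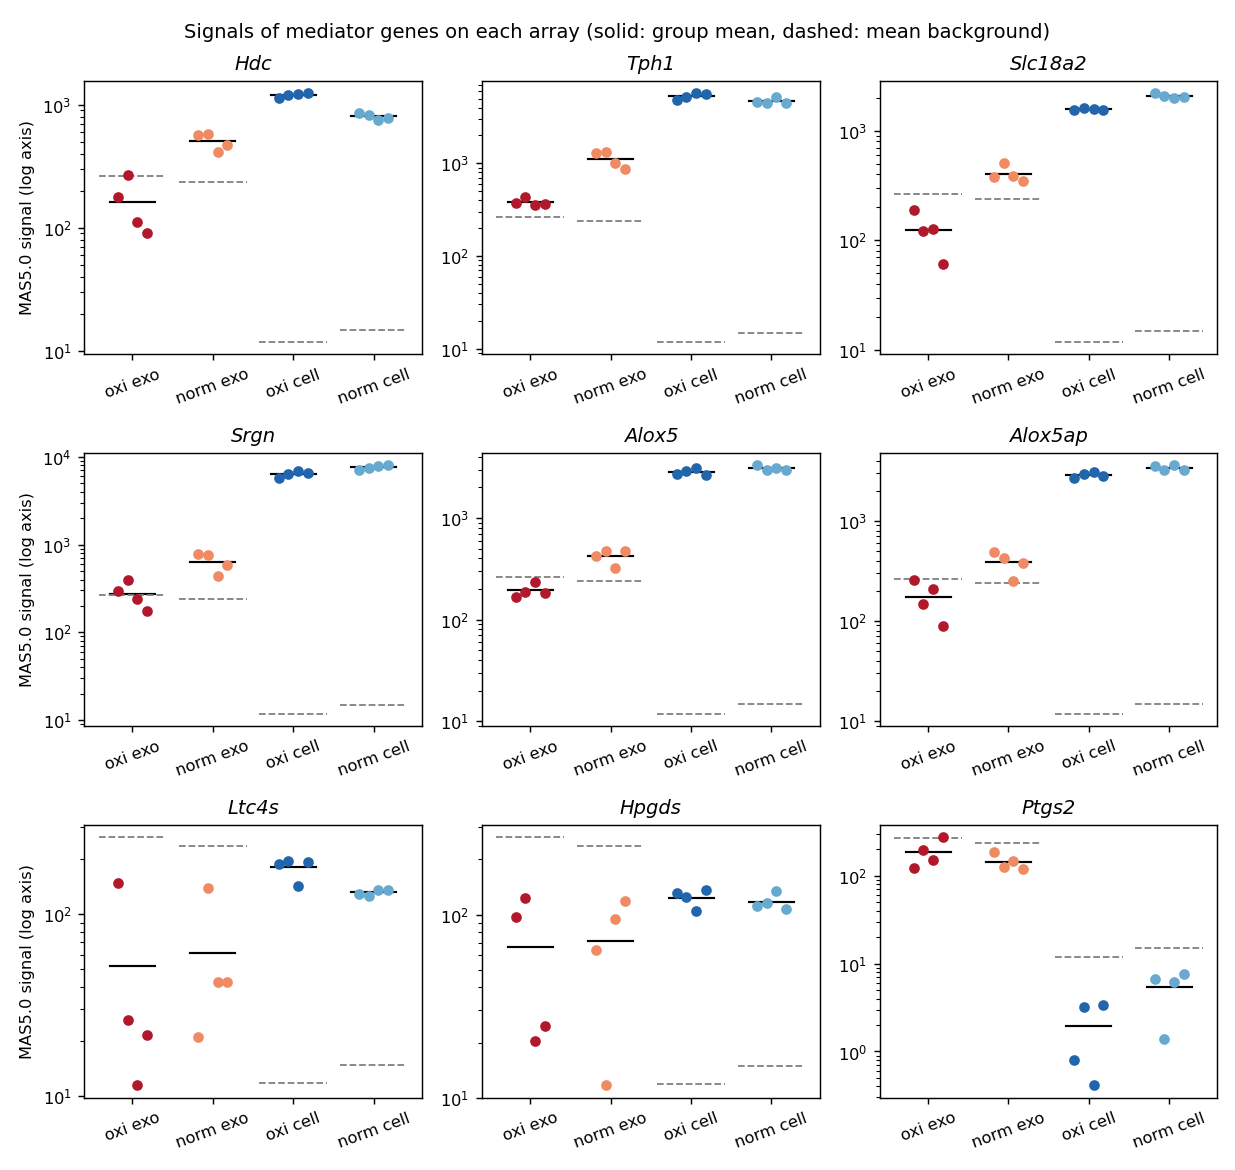
MAS5.0 signal (log axis) of the main probe set of 9 genes on each array, with groups oxi exo, norm exo, oxi cell and norm cell from left to right. Points are arrays, solid lines group means and dashed lines the mean background of each group. Hdc, Tph1, Slc18a2, Srgn, Alox5 and Alox5ap lay above the dashed line on all norm exo arrays, and of these Tph1 did so on all oxi exo arrays. Alox5ap in norm exo replicate 3 lay above this mean but below the background of its own array.

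In the cells, H2O2 was accompanied by changes in both directions. Histidine decarboxylase (Hdc) and leukotriene C4 synthase (Ltc4s) were higher in oxi cell than in norm cell, and the amine transporter Slc18a2, serglycin (Srgn) and the 5-lipoxygenase activating protein (Alox5ap) were lower. By limma with Benjamini-Hochberg adjustment over all probe sets, 3 of 11 probe sets were higher, against 4.31% of all probe sets, and 3 were lower, against 5.51%. Among the 19376 probe sets above background on all 8 cell arrays, 9.75% were higher and 12.1% lower. The median log2 change was -0.12 over the 11 probe sets and -0.15 over all probe sets.

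In the exosomes, every member change that passed was a decrease. Hdc, tryptophan hydroxylase (Tph1), Slc18a2 and Srgn were lower in oxi exo than in norm exo, and no member was higher. Of these Tph1 was the one above background on all oxi exo arrays, so the sizes of the other decreases depend on signals near or below background. These were 4 of 11 probe sets, against 1.7% of all probe sets called lower and 0.0311% called higher. Among the 2552 probe sets above background by their mean log2 signal over all 8 exosome arrays, a set chosen after seeing the data, 22.8% were called lower and 0.118% higher, with a median log2 change of -0.23. Not all members belong to that set, and Slc18a2 fell outside it, so 4 of 11 and 22.8% have different bases. Of the 12 mast cell markers, Fcer1a, Ms4a2 and Cpa3 were also lower in oxi exo and the other 9 did not pass. Of the 12, 6 were above background on no exosome array. In oxi cell 7 of 12 markers were lower and 1 was higher, against 5.51% of all probe sets lower and 4.31% higher. Among probe sets above background on all 8 cell arrays 12.1% were lower and 9.75% higher. These cell calls depend on the scale: 2483 of all probe sets were lower as deposited and 430 after scaling to the spiked controls. The summed signal of the 12 markers ranged between 1780.4 and 2275 in oxi exo, 3685 and 6127 in norm exo, 28258 and 33936 in oxi cell, and 38502 and 42417 in norm cell. Fewer cells or vesicles of a kind and less of an RNA in each cannot be told apart in bulk samples. The paper chose an H2O2 dose that killed a moderate share of the cells. The part of the marker shifts and of cell death in the members' changes was not tested.

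Hdc encodes the enzyme that makes histamine from histidine. Its brighter probe set (1454713_s_at) gave 178, 269, 111 and 91.6 in oxi exo, against 571, 574, 413 and 473 in norm exo. In cells the signals were 1132, 1210.5, 1214 and 1236 in oxi cell, against 858, 827, 754 and 778 in norm cell. The groups did not overlap in either setting, but oxi exo lay below norm exo while oxi cell lay above norm cell. The exosomal log2 change was -1.76 (SE 0.31, adjusted p = 0.00371), and 1 of the 4 oxi exo arrays was above background. With signals floored at background it was -0.88 (adjusted p = 0.00254). The cellular log2 change was 0.58 (SE 0.06, adjusted p = 0.000301), a 1.49-fold higher signal. Both calls held under every limma alternative, including with any 1 replicate number left out.

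The second Hdc probe set (1451796_s_at) was dimmer. It read 403, 507, 465 and 385 in oxi cell, against 303, 276, 333 and 302 in norm cell, again without overlap, and it rose with a log2 change of 0.53 (SE 0.09, adjusted p = 0.00279). In exosomes it read 232, 175, 90.6 and 9.63 in oxi exo, against 201, 234, 39.0 and 225 in norm exo. These groups overlapped, 1 of the 8 arrays was above background, and the log2 change of -0.89 did not pass (adjusted p = 0.755). Probe sets with the ending _s_at can match several transcripts, so both Hdc probe sets may also detect other RNA.

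Tph1 encodes the enzyme that starts serotonin synthesis from tryptophan. Its probe set (1419524_at) read 377, 434, 352 and 359.8 in oxi exo, against 1287, 1315, 1004 and 869 in norm exo. The highest oxi exo array lay below the lowest norm exo array, and the log2 change was -1.54 (SE 0.21, adjusted p = 0.000639), a 2.91-fold lower signal. In cells Tph1 read 4847, 5191, 5673 and 5569.8 in oxi cell, against 4592, 4424, 5164 and 4494 in norm cell. These groups overlapped, and the log2 change of 0.19 (SE 0.05) missed the threshold on the deposited scale (adjusted p = 0.0513), although each of the 4 pairs of equal number was higher in oxi cell. The call depended on the scale: the log2 change was 0.31 after quantile normalization (adjusted p = 0.00213) and 0.49 after scaling to the spiked controls (adjusted p = 0.000161).

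Slc18a2 encodes VMAT2, which pumps histamine and serotonin into granules. Its probe set (1437079_at) read 189, 121, 127 and 61.3 in oxi exo, none above background, against 374, 502, 383 and 349 in norm exo, all above background. In cells it read 1537, 1609.7, 1561 and 1557 in oxi cell, against 2181, 2048, 1963 and 2028 in norm cell. Oxi arrays lay below norm arrays in both settings with no overlap. In exosomes the signal fell at least 1.51-fold under H2O2, with adjusted p = 0.0094 in the limma fit. In cells the log2 change was -0.39 (SE 0.05, adjusted p = 0.000992), a 1.31-fold lower signal. The exosomal call was lost without replicate 2 (adjusted p = 0.0539) or replicate 4 (adjusted p = 0.0502).

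The promoters of Hdc, Tph1 and Slc18a2 are printed because these are the amine genes that changed in the exosomes, with Hdc and Slc18a2 moving in opposite directions in the cells. Each window holds 250 bases before and 50 after a RefSeq transcript start on GRCm38.p6, written 5′ to 3′ on the strand of the gene, with searched motifs in capitals. RefSeq promoter entries were found for 9 of the 10 genes (11 windows), and Alox5ap had none.
Hdc, chr2:126618629-126618928, minus strand: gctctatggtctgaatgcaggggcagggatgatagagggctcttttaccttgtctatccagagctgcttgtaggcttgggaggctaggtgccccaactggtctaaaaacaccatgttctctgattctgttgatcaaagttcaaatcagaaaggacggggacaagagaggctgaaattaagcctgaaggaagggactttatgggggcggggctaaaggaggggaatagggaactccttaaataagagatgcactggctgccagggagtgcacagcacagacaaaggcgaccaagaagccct
Tph1, chr7:46672488-46672787, minus strand: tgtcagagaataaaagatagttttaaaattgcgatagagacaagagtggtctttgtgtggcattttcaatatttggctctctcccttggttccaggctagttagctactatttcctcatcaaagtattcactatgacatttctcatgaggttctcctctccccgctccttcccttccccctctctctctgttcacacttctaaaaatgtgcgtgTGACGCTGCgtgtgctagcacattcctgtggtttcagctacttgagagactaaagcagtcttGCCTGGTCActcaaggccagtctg
Tph1, chr7:46667328-46667627, minus strand: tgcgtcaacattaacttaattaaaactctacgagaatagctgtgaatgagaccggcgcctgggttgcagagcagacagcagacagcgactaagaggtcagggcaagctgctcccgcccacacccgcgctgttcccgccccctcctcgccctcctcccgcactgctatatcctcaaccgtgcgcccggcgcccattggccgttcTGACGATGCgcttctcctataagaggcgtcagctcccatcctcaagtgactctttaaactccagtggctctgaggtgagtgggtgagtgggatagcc
Slc18a2, chr19:59260628-59260927, plus strand: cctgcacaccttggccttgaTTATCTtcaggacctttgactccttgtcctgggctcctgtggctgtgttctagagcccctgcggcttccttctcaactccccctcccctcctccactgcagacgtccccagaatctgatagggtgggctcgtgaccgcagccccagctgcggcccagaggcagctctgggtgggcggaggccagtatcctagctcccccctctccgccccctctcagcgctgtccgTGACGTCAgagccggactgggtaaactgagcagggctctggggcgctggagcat
The motifs searched on both strands were AGATAA (the site of GATA factors), CACGTG and CATGTG (E-boxes), TGANTCA (AP-1), TGACGTCA (CRE) and TGACNNNGC (the core of the antioxidant response element). TGACNNNGC was in both Tph1 windows, at -36 and 27 bases from the start in the upstream one and at -47 in the other, and in 12.4% of all 32851 promoter windows. The Slc18a2 window held AGATAA on the opposite strand at -230, a motif in 11.2% of windows, and TGACGTCA at -4, a motif in 1.79% of windows. The Hdc window held none of the 6 motifs. Among the other members, CATGTG (14.2% of windows) was in the Hpgds window and CACGTG (7.15%) in the Ptgs2 window, and TGANTCA (7.81%) was in no member window. A match is a description of the letters only.

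Srgn encodes the core protein of serglycin, on which the sulfated chains are built. Its probe set (1417426_at) read 293, 391, 239 and 174 in oxi exo, against 786, 763, 437 and 579.5 in norm exo. In cells it read 5734, 6323, 6883 and 6558 in oxi cell, against 7152, 7504, 7945 and 8033 in norm cell. The oxi groups lay below the norm groups without overlap in both settings, and 1 of the 4 oxi exo arrays was above background. The log2 change was -1.25 in exosomes (SE 0.26, adjusted p = 0.0149) and -0.27 in cells (SE 0.05, adjusted p = 0.00564). Neither call held on every scale: after quantile normalization the adjusted p was 0.115 in exosomes and 0.528 in cells, and on the spiked scale it was 0.0520 in exosomes. The exosomal call was also lost without replicate 1 (adjusted p = 0.0892) or replicate 4 (adjusted p = 0.0782), and the cellular call without replicate 4 (adjusted p = 0.0605).

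The first steps of leukotriene synthesis need 5-lipoxygenase (Alox5) and its membrane partner (Alox5ap). Alox5 (1441962_at) read 166, 189, 235 and 184 in oxi exo, against 425, 476, 319.8 and 471 in norm exo. No oxi exo array and all norm exo arrays were above background, and the groups did not overlap. This gives a difference of at least 1.58-fold, but it did not pass in the limma fit (adjusted p = 0.079). It did pass in 5 alternatives, without replicate 3 (adjusted p = 0.0411), without the replicate block (0.0404), with the filter above the median signal (0.0332), with a pseudocount of 100 (0.0203) and with the floor at background (0.0251). The floor replaced every oxi exo signal of Alox5 by the background, so that fit compares norm exo with background only. In cells Alox5 read 2712, 2894, 3133 and 2664 in oxi cell, against 2942 to 3310.0 in norm cell, with overlap and a log2 change of -0.12 (SE 0.06, adjusted p = 0.279).

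Alox5ap (1452016_at) read 256, 146, 206 and 88.0 in oxi exo, against 491, 422, 250.4 and 375 in norm exo. The groups overlapped by 1 array on each side, no oxi exo array and 3 norm exo arrays were above background, and the difference did not pass (adjusted p = 0.117), though it did without replicate 3 (adjusted p = 0.0399) and with a pseudocount of 100 (adjusted p = 0.0359). In cells Alox5ap read 2700.1, 2936, 3054 and 2836 in oxi cell, against 3501, 3187, 3595 and 3256 in norm cell. These groups did not overlap, and the log2 change was -0.23 (SE 0.06, adjusted p = 0.0212). This call was lost without replicate 1, 3 or 4, with adjusted p = 0.0741, 0.0603 and 0.0893.

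Ltc4s joins glutathione to leukotriene A4 and so commits the pathway to the cysteinyl leukotrienes. Its probe set (1419692_a_at) read 189, 196, 143 and 194 in oxi cell, against 129, 126, 136 and 136 in norm cell. Oxi cell replicate 3 lay nearest to norm cell, and the groups did not overlap. The log2 change was 0.45 (SE 0.10, adjusted p = 0.0172), a 1.36-fold higher signal, and the call was lost without replicate 1, 2 or 4 (adjusted p = 0.0856, 0.102 and 0.0796). In exosomes the signals were 11.5 to 148 in oxi exo, against 21.0 to 139 in norm exo, and no exosome array was above background.

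Hpgds makes prostaglandin D2, the main prostaglandin of mast cells, and Ptgs2 is the inducible cyclooxygenase that supplies its substrate. Hpgds (1421492_at) read 131, 125, 104 and 136 in oxi cell, against 112, 116, 135 and 107 in norm cell. These groups overlapped, with a log2 change of 0.07 (SE 0.12, adjusted p = 0.781). On the exosome arrays Hpgds read 20.4 to 123 in oxi exo, against 11.7 to 118 in norm exo, none above background. The brighter Ptgs2 probe set (1417263_at) read 0.803, 3.20, 0.411 and 3.38 in oxi cell, against 6.62, 1.38, 6.13 and 7.67 in norm cell, and the other (1417262_at) reached at most 3.06 in either. No cell array was above background for Ptgs2, so no fold is given. In exosomes the brighter Ptgs2 probe set read 122, 197, 151 and 275 in oxi exo, of which 1 was above background, against 188, 125, 147 and 119 in norm exo, of which none was.

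**Figure D2:**
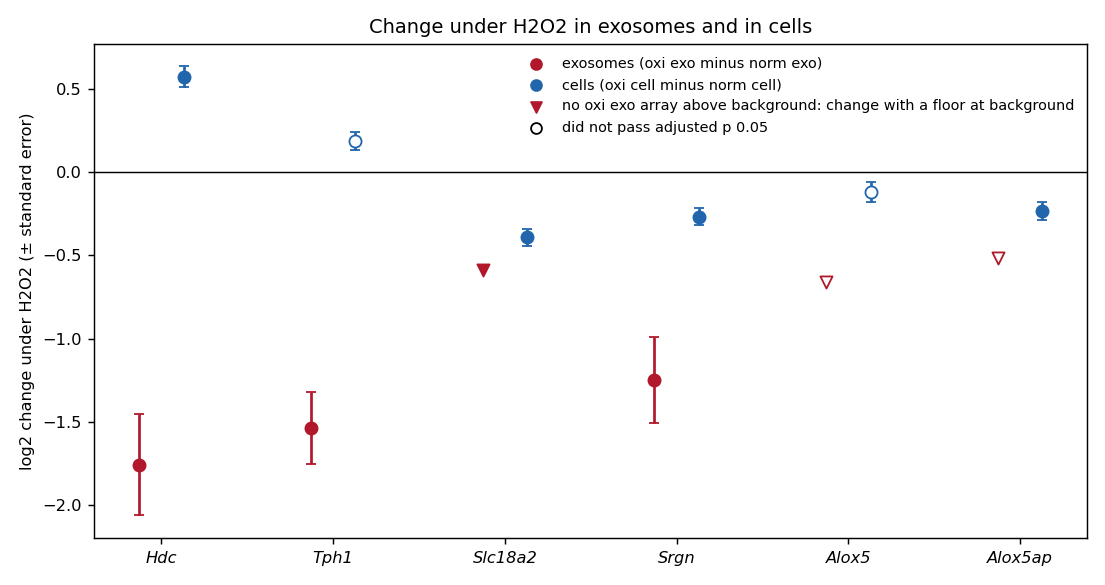
Log2 change under H2O2 (± standard error, 4 arrays per group) of 6 genes, in exosomes (red, oxi exo minus norm exo) and in cells (blue, oxi cell minus norm cell). Triangles stand for Slc18a2, Alox5 and Alox5ap in exosomes, which were above background on no oxi exo array. They show the change with signals floored at background (-0.59, -0.66 and -0.52), without an error bar. Without a floor these changes were -1.79, -1.12 and -1.21. Hdc and Srgn are drawn without a floor, although 1 of their 4 oxi exo arrays was above background. Heights of triangles and circles are therefore not comparable. Open symbols did not pass adjusted p 0.05 in the fit without a floor.

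Whether the exosomal change differed from the cellular change was tested on the log2 differences within the 4 pairs of each. The difference passed for Hdc and Tph1, 2 of 11 probe sets, against 1.47% of all probe sets lower and 0.0933% higher. Among the 1999 probe sets above background on all cell arrays and by their mean log2 signal over all exosome arrays, 21.4% were called lower. Not all of the 11 probe sets belong to that set, so 2 of 11 and 21.4% have different bases. For Hdc the exosomal change was lower than the cellular change by a log2 difference of -2.34 (SE 0.30, adjusted p = 0.00663), or -1.46 with signals floored at background, and its 4 exosome pairs ran between -2.37 and -1.09 while its 4 cell pairs ran between 0.40 and 0.69. For Tph1 the log2 difference was -1.73 (SE 0.19, adjusted p = 0.00372), with exosome pairs between -1.77 and -1.27 and cell pairs between 0.08 and 0.31. Slc18a2 (adjusted p = 0.0617), Srgn (log2 difference -0.98, adjusted p = 0.0612) and Alox5 (adjusted p = 0.0977) did not pass. The second Hdc probe set did not pass either (log2 difference -1.42, adjusted p = 0.574), and its exosome pairs ran between -4.54 and 1.22. The pairs share only a replicate number, and without the block Slc18a2 (adjusted p = 0.0468) and Alox5 (adjusted p = 0.0317) passed as well, which made 4 probe sets. The call for Hdc was lost without replicate 1 (adjusted p = 0.0612) and without replicate 2 (adjusted p = 0.0576), and that for Tph1 without replicate 2 (adjusted p = 0.0631).

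The cellular changes are small enough for the scale of the arrays to matter. The spiked controls were 0.814 times as bright in oxi cell as in norm cell, and the median log2 change of all probe sets was -0.15 on the deposited scale, 0.0015 after quantile normalization and 0.15 after scaling to the spiked controls. Hdc was higher on all 3 scales, at log2 changes of 0.58, 0.51 and 0.87, and Ltc4s at 0.45, 0.49 and 0.74. Slc18a2 was at -0.39, -0.44 and -0.09, and the last did not pass (adjusted p = 0.403). Srgn was at -0.27, -0.06 and 0.03 and Alox5ap at -0.23, -0.23 and 0.06, so both turned to the other side of 0 on the spiked scale without passing there. Relative to the median of all probe sets, the deposited change was 0.72 for Hdc, 0.59 for Ltc4s, 0.34 for Tph1, -0.24 for Slc18a2, -0.12 for Srgn and -0.08 for Alox5ap. That median includes probe sets at background. Among the 19376 probe sets above background on all 8 cell arrays the median was -0.07, nearer to no change.

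**Figure D3:**
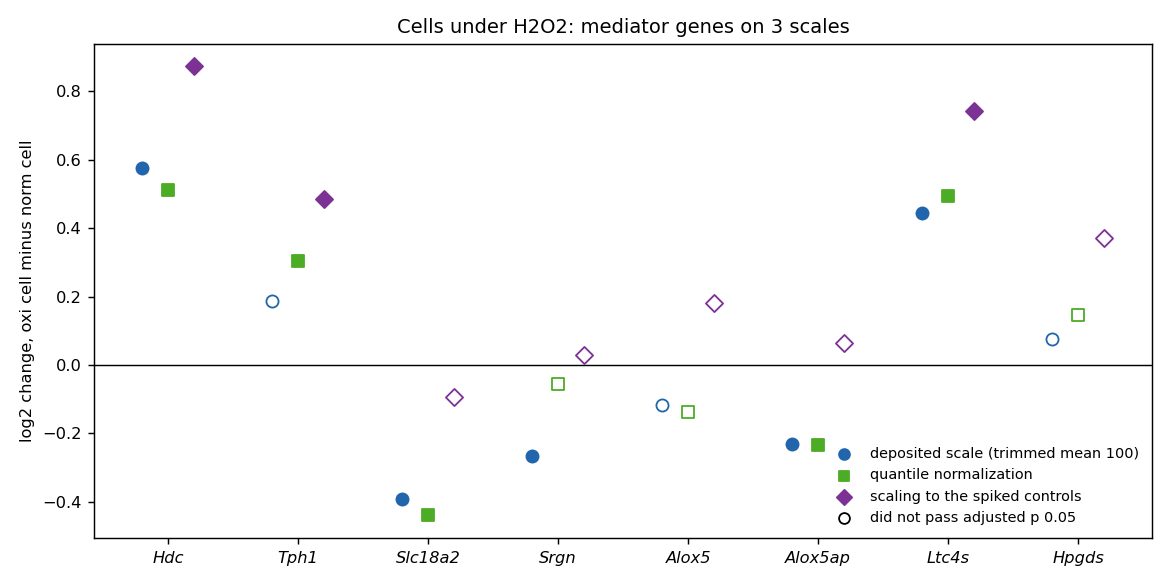
Log2 change, oxi cell minus norm cell, of 8 genes on the deposited scale (circles), after quantile normalization (squares) and after scaling to the spiked controls (diamonds); open symbols did not pass adjusted p 0.05. Hdc and Ltc4s lay above 0 on all 3 scales, and Slc18a2, Srgn and Alox5ap moved toward or past 0 on the spiked scale.

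Exosomal and cellular RNA were compared next, each relative to its own array. Under H2O2, 9 of 11 probe sets were lower in oxi exo than in oxi cell, against 19.4% of all probe sets, and the 2 Ptgs2 probe sets were higher, against 60.8%. Under normal conditions 8 were lower in norm exo than in norm cell, against 19% of all probe sets, and the 2 Ptgs2 probe sets were higher, against 57.7%. Among probe sets above background in the cells the shares called lower were 43% in oxi exo and 42.6% in norm exo, and those called higher 21.5% in oxi exo and 19.3% in norm exo. These sets were chosen by the cells alone, which favours lower calls in exosomes. The higher Ptgs2 signals were not above background on all arrays of any group, and they carry no fold. For Ltc4s and Hpgds the background of the exosome arrays exceeded the signal in cells, so their lower calls carry no fold either.

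Srgn, the brightest member probe set in cells, averaged 274 ± 91.5 in oxi exo against 6375 ± 485 in oxi cell, and 641 ± 165 in norm exo against 7659 ± 409 in norm cell (SD, n = 4 each). Its log2 difference was -4.60 under H2O2 and -3.62 under normal conditions, with adjusted p = 7.86e-06 and 1.69e-06. Alox5 was at least 10.8-fold and Alox5ap at least 10.9-fold below oxi cell in oxi exo, and their log2 differences between norm exo and norm cell were -2.88 and -3.18. Tph1 was 14.0-fold lower in oxi exo than in oxi cell and 4.23-fold lower in norm exo than in norm cell. Slc18a2 was at least 5.92-fold below oxi cell in oxi exo and 5.16-fold lower in norm exo than in norm cell. Hdc was 1.60-fold lower in norm exo than in norm cell (log2 difference -0.67, SE 0.19, adjusted p = 0.0076) and had a log2 difference of -3.01 between oxi exo and oxi cell. For Hdc and for Srgn 1 of the 4 oxi exo arrays was above background. Their differences under H2O2 therefore depend in size on signals near or below background. After quantile normalization the normal-condition difference of Hdc turned to 0.70 (adjusted p = 0.0109), so its direction rests on the scale.

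On the deposited scale the order of levels was the same for Hdc and Tph1, with oxi exo lowest, then norm exo, norm cell and oxi cell. The place of norm exo below norm cell turned for Hdc after quantile normalization, as given above, and the cell groups of Tph1 overlapped. For Slc18a2 and Srgn the order was oxi exo, norm exo, oxi cell and norm cell, with no overlap between neighbours. For Alox5 the order was the same, with overlapping cell groups, and for Alox5ap it was the same with overlapping exosome groups. The coefficient of variation of Hdc, Tph1, Slc18a2, Srgn and Alox5 ranged between 9.79% and 49.4% in oxi exo, 15.5% and 25.7% in norm exo, and 1.97% and 7.61% over both cell groups.

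The remaining genes of the pathways were taken from lists by function. In oxi cell against norm cell, none of 6 histamine turnover and receptor genes passed, and 1 of them, the H2 receptor Hrh2, was above background on all cell arrays. Of 6 serotonin and amine handling genes, 2 rose and none fell. Of 14 leukotriene genes, 3 rose and none fell, and of 18 prostaglandin genes, 2 rose and none fell. Of 20 genes for glycosaminoglycan chains, the sulfated sugars of serglycin, 5 fell and none rose. The background shares for these counts are the 4.31% higher and 5.51% lower of the whole array, or 9.75% higher and 12.1% lower among probe sets above background on all cell arrays. The median log2 changes were -0.10 for histamine, 0.27 for amines, 0.21 for leukotrienes, -0.25 for prostaglandins and -0.15 for glycosaminoglycans, against -0.15 for all probe sets. These include 4 histamine, 2 amine, 5 leukotriene, 8 prostaglandin and 1 glycosaminoglycan gene above background on no cell array. With the filter above the median signal, the medians were 0.07 for histamine (2 genes) and 0.09 for prostaglandins (7 genes). They were then 0.27 for amines (4 genes), 0.17 for leukotrienes (8 genes) and -0.21 for glycosaminoglycans (18 genes), against -0.08 for all probe sets. In oxi exo against norm exo no gene of the 5 lists passed, and 1 of the 6 amine genes, 1 of the 14 leukotriene genes and none of the other lists were above background on all oxi exo arrays.

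Both monoamine oxidases, which break down serotonin and other amines, were higher in oxi cell. Maob averaged 2097 ± 38.6 in oxi cell, against 1603 ± 22.4 in norm cell (log2 change 0.39, adjusted p = 0.000701), and Maoa 141 ± 17.3 in oxi cell, against 93.6 ± 14.8 in norm cell (log2 change 0.60, adjusted p = 0.0166). Ddc, which turns the product of Tph1 into serotonin, averaged 1641 ± 165 in oxi cell and 1725 ± 100.5 in norm cell and did not pass (adjusted p = 0.472). In exosomes Ddc averaged 222 ± 50.2 in oxi exo and 496 ± 92.0 in norm exo (log2 change -1.17, adjusted p = 0.0518), with 1 oxi exo array and all norm exo arrays above background.

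Among the leukotriene genes, cytosolic phospholipase A2 (Pla2g4a), which frees arachidonic acid, averaged 582 ± 35.0 in oxi cell, against 488 ± 6.30 in norm cell (log2 change 0.25, adjusted p = 0.0226). Cotl1, an actin-binding protein that also binds 5-lipoxygenase, averaged 2919 ± 269 in oxi cell, against 1901 ± 156 in norm cell (log2 change 0.62, adjusted p = 0.000186). Ptgr1, a reductase that inactivates leukotriene B4 and prostaglandins, averaged 44.8 ± 4.37 in oxi cell, above background on 4 arrays, against 15.4 ± 4.54 in norm cell, above background on 2 arrays (log2 change 1.58, adjusted p = 0.0021). Cotl1 was the 1 gene of the 5 lists whose exosomal change differed from its cellular change (adjusted p = 0.0171), but no oxi exo array and 1 norm exo array were above background. Lta4h, which makes leukotriene B4, averaged 1030.0 ± 49.3 in oxi cell and 973 ± 39.2 in norm cell and did not pass (adjusted p = 0.45).

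Of the prostaglandin genes, the carbonyl reductase Cbr1 averaged 475 ± 9.23 in oxi cell, against 354 ± 34.8 in norm cell (log2 change 0.43, adjusted p = 0.00361). The prostaglandin E2 receptor Ptger4 averaged 42.7 ± 3.52 in oxi cell, against 20.4 ± 1.91 in norm cell (log2 change 1.07, adjusted p = 0.00555). The groups did not overlap for Cbr1 or Ptger4.

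The 5 lower glycosaminoglycan genes act on the chains after their backbone is begun. Ndst2, the sulfotransferase that mast cells use for heparin, averaged 394 ± 28.2 in oxi cell, against 481 ± 8.22 in norm cell (log2 change -0.29, adjusted p = 0.0133). Hs6st1, a second heparan sulfate sulfotransferase, had a log2 change of -0.50 (adjusted p = 0.00722), and Sulf2, which removes sulfate, had -0.28 (adjusted p = 0.0269). The chondroitin sulfotransferases Chst15 and Chst11 had log2 changes of -0.41 (adjusted p = 0.00293) and -0.32 (adjusted p = 0.00714). On the spiked scale none of the 20 genes fell and 3 rose, whereas 5 fell after quantile normalization. The rises of Maob, Cotl1, Ptgr1, Cbr1 and Ptger4 passed under every limma alternative, whereas that of Maoa was lost without replicate 1, 2 or 4 (adjusted p = 0.0841, 0.0826 and 0.0924) and that of Pla2g4a without replicate 1, 2 or 3 (adjusted p = 0.0721, 0.0808 and 0.0811). The fall of Sulf2 was lost without replicate 1, 3 or 4 (adjusted p = 0.0871, 0.102 and 0.0874), and those of Ndst2 (adjusted p = 0.0874) and Chst11 (adjusted p = 0.0522) without replicate 4.

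**Figure D4:**
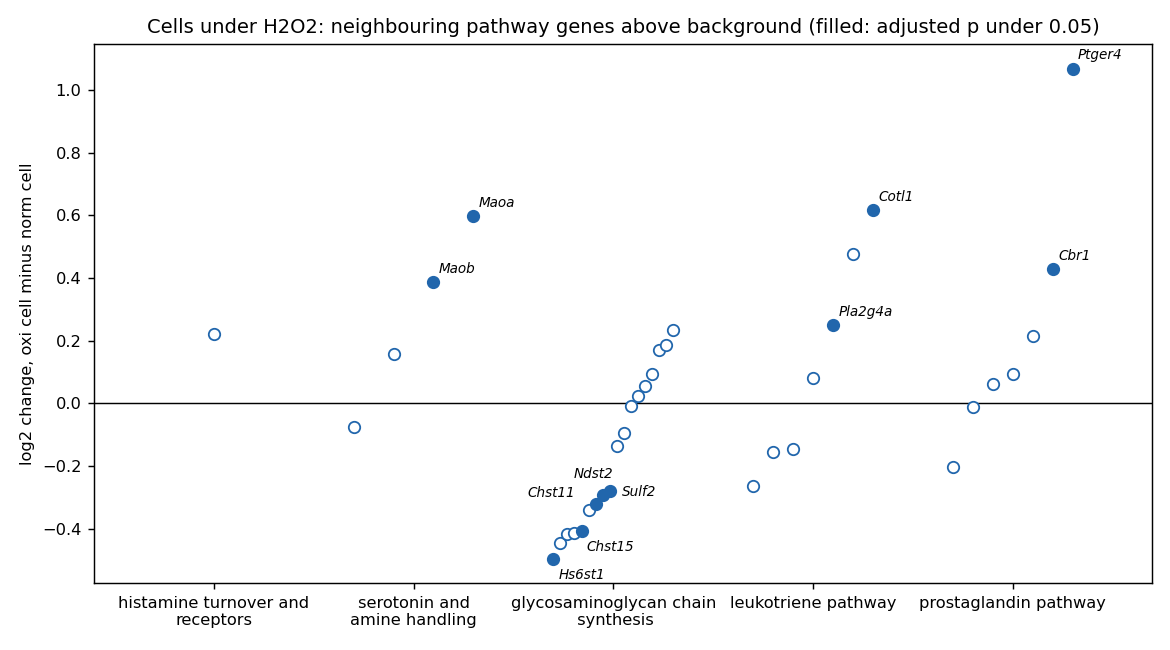
Log2 change, oxi cell minus norm cell, on the deposited scale for the listed pathway genes that were above background on all 8 cell arrays, grouped by list and sorted within it. Filled, named points passed adjusted p 0.05: all 5 of the glycosaminoglycan genes that passed lay below 0, and all that passed in the other lists lay above 0.

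The genes whose patterns over the 16 arrays were most like those of Hdc and Srgn were sought among 16702 probe sets of other genes above background on all cell arrays, by the root mean square difference of centred log2 signals. For Hdc they were Rtraf (0.22), Gnb1 (0.23) and Hexa (0.25), the last a lysosomal hexosaminidase. For Srgn they were H2-D1 (0.17), Eif5a (0.20) and Prnp (0.24). Hexa averaged 240.2 in oxi exo, 609.9 in norm exo, 1273 in oxi cell and 1035 in norm cell, and Prnp averaged 196 in oxi exo, 461 in norm exo, 5198 in oxi cell and 6893 in norm cell. These genes were picked for their likeness over the same 16 arrays, so their changes under H2O2 describe the pick and are no separate evidence. By limma, the change under H2O2 passed in both cells and exosomes for Rtraf, Hexa, H2-D1 and Prnp. Gnb1 did not pass in cells (adjusted p = 0.116), and Eif5a passed neither in cells (adjusted p = 0.838) nor in exosomes (adjusted p = 0.0892).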

How the data were processed

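Total RNA of exosomes and of MC/9 cells was hybridised to Affymetrix mouse arrays, 16 in all, 4 per group. The methods name the Mouse Genome 430A 2.0 array and the labels the 430 2.0, and the table holds the 45101 probe sets of the second. The deposited values are MAS5.0 signal intensities on a linear scale, made by the authors with GCOS 1.2 per the submitters' processing notes. The mean of each array after trimming 2% at either end was 100, which fixes the total and leaves the amount of RNA unknown. The number of arrays limits the precision. The 64 control probe sets were left out of the tests.

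Groups came from the sample titles. Log2 signals were fitted with limma 3.58.1 (R 4.3.3) on the arrays of each comparison, blocked on replicate number since the methods name a paired test, and two-sided p-values were adjusted by Benjamini-Hochberg over 45037 probe sets at a threshold of 0.05. The exosomal and cellular changes were compared by limma on the within-pair differences. A gene with several probe sets is described by the brightest one. Named genes were the members, and from the lists (histamine, amine, glycosaminoglycan, leukotriene and prostaglandin genes, and markers of mast cells, basophils and other cells) those past the threshold or of high signal. The members and lists were chosen with earlier results of these data known. Where a gene was above background in 1 group only, a bound was computed as mean log2 signal of the bright group against the higher of background and own signal in the dim group. No present calls were used. Alternatives were no block, quantile normalization, scaling to 9 spiked control probe sets, a filter above the median signal, a pseudocount of 100, a floor at background, each replicate number left out, and the methods' paired test on linear signals. The steps were tested on simulated data. Promoters came from RefSeq (GRCm38.p6).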

Additional observations from a re-analysis of the deposited data

Results flagged for a closer look

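In 4 of 44 tested sets of 4 arrays, 1 array stood apart by Dixon's criterion, and chance gives about 1 in 20. The second Hdc probe set read 39.0 in norm exo replicate 3, below its other norm exo arrays. Ltc4s read 148 in oxi exo replicate 1, above the other oxi exo arrays but below background, and 143 in oxi cell replicate 3, below the other oxi cell arrays. The dimmer Ptgs2 probe set read 1.28 in oxi cell replicate 1, also below background. The exosomal change differed from the cellular change for the brighter Hdc probe set (log2 difference -2.34, limma adjusted p = 0.00663) and Tph1 (-1.73, adjusted p = 0.00372). For these 2 probe sets all 4 exosome pairs were lower and all 4 cell pairs higher under H2O2. The second Hdc probe set did not pass (log2 difference -1.42, adjusted p = 0.574), and its exosome pairs ran between -4.54 and 1.22. No explanation was tested.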

How the results depend on the processing

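All comparisons are by limma unless named otherwise, and the cause of each change below was not tested.
Oxi cell minus norm cell had 1941 probe sets higher and 2483 lower. Scaling to the spiked controls gave 6443 higher and 430 lower, with 0 of the members lower, and log2 changes turned to 0.030 for Srgn, 0.18 for Alox5, 0.065 for Alox5ap, 0.22 for Ddc, 0.0047 for Ndst2 and 0.017 for Sulf2. A floor at background gave 6214 lower (for this setting, probe sets at the floor on all arrays were dropped and no intensity trend was fitted). Leaving out 1 replicate number gave 1130 to 1672 higher, 1363 to 2045 lower and 1 to 3 members lower, with Hpgds at -0.014 to 0.22. The methods' paired test gave 3021 higher and 4864 lower unadjusted, and 2 and 3 after Benjamini-Hochberg, with 0 members in either direction.
Oxi exo minus norm exo had 14 higher and 764 lower. Higher counts were 116 with quantile normalization, 8 with the spiked controls, 39 with the pseudocount, 81 with the floor and 8 to 20 without 1 replicate. Lower counts were 274 with quantile normalization and 484 to 802 without 1 replicate, with 2 to 6 members lower. The floor turned the second Hdc probe set to 0.12 and cut the fall of Hdc to -0.88. Without 1 replicate the values that turned were those of the second Hdc probe set (-1.59 to 0.33), Hpgds (-1.29 to 0.60) and the dimmer Ptgs2 probe set (-0.48 to 1.39), none of which passed. The paired test gave 1529 higher and 2151 lower unadjusted, and 0 and 0 adjusted, with 0 members lower.
Norm exo minus norm cell had 25977 higher and 8538 lower. Quantile normalization gave 8196 higher and turned Hdc to 0.70. The spiked controls gave 1232 higher, 23105 lower and 0 members higher, and the filter 7403 higher and 0 members. The floor gave 4754 lower and, by raising the exosome values to the background, turned Ltc4s to 0.85 and Hpgds to 1.02. The paired test gave 14490.0 higher unadjusted and 7794 adjusted, with 1 member higher.
Oxi exo minus oxi cell had 27373 higher and 8740.0 lower. Quantile normalization gave 9083 higher, the spiked controls 1780.0 higher, 22455 lower and 1 member higher, and the filter 7741 higher and 0 members. The floor gave 4655 lower and turned Ltc4s to 0.56 and Hpgds to 1.10. The paired test gave 15775 higher unadjusted and 9710.0 adjusted, with 1 member higher in each.
The exosome change minus the cell change had 42 higher and 662 lower. Higher counts were 112 without the replicate block, 21 with quantile normalization, 26 with the spiked controls, 85 with the filter, 201 with the pseudocount and 12058 with the floor, which also put 1 member higher. Lower counts were 283 with quantile normalization and 1793 with the floor. Members lower were 4 without the block, with the spiked controls and with the filter, and 5 with the floor, which turned Hpgds to 0.082. Without 1 replicate there were 0 to 22 higher, 6 to 543 lower and 0 to 3 members lower, with Hpgds at -1.35 to 0.61 and the dimmer Ptgs2 probe set at -0.097 to 2.28. The paired test was not run here.
The pairing rests on a shared number: deviations of same-numbered arrays correlated at -0.024 to 0.035 over the comparisons, and in none did every array correlate best with its own number. Without the replicate block, oxi cell minus norm cell had 2133 higher and 2717 lower, and oxi exo minus norm exo 21 and 718, with Alox5 then passing (adjusted p = 0.0404). Exosome levels near background limit every exosomal value. Outside the left-out replicates, single-gene values in oxi cell minus norm cell kept direction and call in 128 cases, lost the call in 8, gained it in 4 and turned in the 6 given above. For oxi exo minus norm exo these were 52, 2, 5 and 1.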

Other observations

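Slc18a1, which encodes the amine transporter VMAT1 of neuroendocrine cells, was read by 1 probe set at 380 ± 57.1 in oxi exo and 389 ± 32.9 in norm exo, above background on every exosome array, and at 5.61 ± 2.36 in oxi cell and 5.92 ± 4.23 in norm cell, above background on none (SD, n = 4 each). It was noticed after its values were seen, and whether the probe set detects this RNA was not tested. Over all probe sets, 60.8% were higher in oxi exo than in oxi cell and 57.7% in norm exo than in norm cell. Zap70 and Ggt5 were also above background on every exosome array. Zap70 averaged 1089 in oxi exo and 807 in norm exo, against 49.8 in oxi cell and 24.7 in norm cell. Ggt5 averaged 380 in oxi exo and 330 in norm exo, against 25.4 in oxi cell and 30.2 in norm cell. The defining enterochromaffin markers Chga, Chgb and Tac1 were above background on no array of any group. Of the other marker lists, the genes above background on all oxi cell arrays were 3 of 9 for macrophages and neutrophils, 4 of 5 for megakaryocytes, 2 of 6 for T lymphocytes, 0 of 3 for B lymphocytes, 1 of 3 for erythroid cells and 1 of 2 for basophils. On all norm cell arrays there were 2 for macrophages and neutrophils and 0 for T lymphocytes, with equal counts for the other lists. None of these lists but the megakaryocyte one held a gene that passed under H2O2, where 2 genes were lower in oxi cell and 1 in oxi exo.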
